A study of Mus musculus with 23 samples.

Results

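The genes described here are 10 cell surface markers by which mesenchymal stem cells (MSCs) of the mouse are commonly recognised: Ly6a, Ly6c1, Ly6e, Cd44, Thy1, Vcam1, Alcam, Cd34, Eng and Nt5e. They were chosen by symbol from a table of 23284 genes, all 10 were present in it, and the question was which of them occurred together in 1 cell. The libraries comprised 16 single bone marrow MSCs (mMSC1 to mMSC16), 5 single HL-1 cardiomyocytes (HL1cm1 to HL1cm5, a mouse cardiomyocyte line used as the negative control) and 1 population control (PC) of each cell type, 23 in all. The labels give strain C57BL/6J for both cell types, passages 6 to 11 for mMSCs and passages 70 to 85 for HL1cm. The mMSCs were bought and originated from male mice aged 3 months, no treatment is named for either cell type, and HL1cm carried a green cytoplasmic dye. Both cell types were captured on 1 Fluidigm C1 device for large cells, and the population controls are bulk samples prepared in the same manner. No separate cultures are named, so each cell type is 1 sample, cells are not replicates of a condition, and values are described without a test.

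Ly6a encodes Sca-1, and Ly6c1 and Ly6e are relatives of it in the Ly6 family, whose small cysteine-rich proteins are held in the membrane by a glycolipid anchor. Cd44 is the main receptor for hyaluronan, Vcam1 and Alcam are adhesion molecules of the immunoglobulin superfamily, and Cd34 is a sialomucin best known from blood stem cells and endothelium. Nt5e (CD73), Thy1 (CD90) and Eng (CD105) form the positive panel that defines human MSCs, whereas Cd34, Cd14 and Ptprc (CD45) are among the genes expected to be missing from those cells. For mouse MSCs the study describes the use of varying subsets of surface markers. It places Ly6a and Cd44 among those that earlier work found high.

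Expression was given as FPKM, which scales fragments by transcript length and by library depth, so that levels can be compared between genes per length. On a transcript of 1 kilobase, the value of 1 read pair had a median of 2.93 FPKM over the mMSCs and a range of 2.11 to 13.3 FPKM, and between 5178 and 7241 genes reached 1 FPKM in a single mMSC. A value of 0 was not always a missing transcript. Of 895 genes with a median of at least 100 FPKM over the mMSCs, 57 (6.37%) were listed at 0 in 1 mMSC or more. The wording used here is therefore that a gene was listed at 0. Gapdh, the general-use gene of the study, lay between 157 and 319 FPKM in mMSCs and between 190 and 395 in HL1cm. Of 10 cardiomyocyte markers, 8 were lower in every mMSC than in every HL1cm, beside 1.61% of the 13850 genes above 0 in any single cell. The summed level of the 10 was 0 to 65.4 FPKM in mMSCs against 32797 to 60014 in HL1cm. Of the 7 MSC surface genes used to check the label, Ly6a, Cd44, Cd9 and Pdgfrb were above 0 in all 16 mMSCs, Vcam1 in 14, Pdgfra in 11 and Thy1 in none.

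The 3 Ly6 genes lie close together on chromosome 15 (GRCm38, GENCODE M21), with Ly6e at chr15:74955051-74959905 on the plus strand, Ly6a at chr15:74994877-74998031 on the minus strand and Ly6c1 at chr15:75044018-75048830 on the minus strand. Their sequences are shown because near-identical copies can share reads, which bears on any comparison of their levels. The first 120 coding bases, counted from the start codon, follow from GENCODE M21 in the 5′ to 3′ direction. Capitals mark the longest run that is identical to a stretch of the Ly6a bases shown, and Ly6c2 at chr15:75108158-75111970 is added as the closest relative of Ly6c1.
Ly6a: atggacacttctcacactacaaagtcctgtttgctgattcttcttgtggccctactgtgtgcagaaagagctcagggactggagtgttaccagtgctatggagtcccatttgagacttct
Ly6c1: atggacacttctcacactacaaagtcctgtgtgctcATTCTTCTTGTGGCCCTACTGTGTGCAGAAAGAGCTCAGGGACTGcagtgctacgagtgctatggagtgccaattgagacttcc
Ly6c2: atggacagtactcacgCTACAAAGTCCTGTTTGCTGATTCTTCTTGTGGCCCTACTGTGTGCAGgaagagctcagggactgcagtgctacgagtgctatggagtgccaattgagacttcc
Ly6e: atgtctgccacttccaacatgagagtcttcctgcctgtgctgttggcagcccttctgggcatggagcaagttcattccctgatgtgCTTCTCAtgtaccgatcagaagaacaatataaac

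Over the whole coding sequence, the longest run shared with Ly6a was 48 bases in Ly6c1, 52 in Ly6c2 and 9 in Ly6e. A read of 75 bases from Ly6a could therefore rarely match Ly6c1 without a mismatch. Matches with mismatches were not counted, so more reads could be shared, and the part of shared reads in the levels was not tested. Of the 881 windows of 75 bases along the longest Ly6a transcript, 15 (1.70%) also occurred in Ly6c1 and 6 in Ly6i. Of the 770 windows of Ly6c1, 164 (21.3%) also occurred in Ly6c2 and 15 (1.95%) in Ly6a. Part of the Ly6c1 level could thus belong to Ly6c2, which was itself above 0 in 1 mMSC at 23.1 FPKM. Ly6e and the other 7 markers shared no window with another gene.

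Ly6a, Ly6e and Cd44 were above 0 in every one of the 16 mMSCs, and Ly6c1 was above 0 in 15. All 4 occurred together in 15 of 16 mMSCs (93.8%, exact 95% interval 69.8 to 99.8%, which covers counting error only), and mMSC1 was the exception because Ly6c1 was listed at 0 there. No HL1cm carried all 4 genes above 0.

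**Figure D1:**
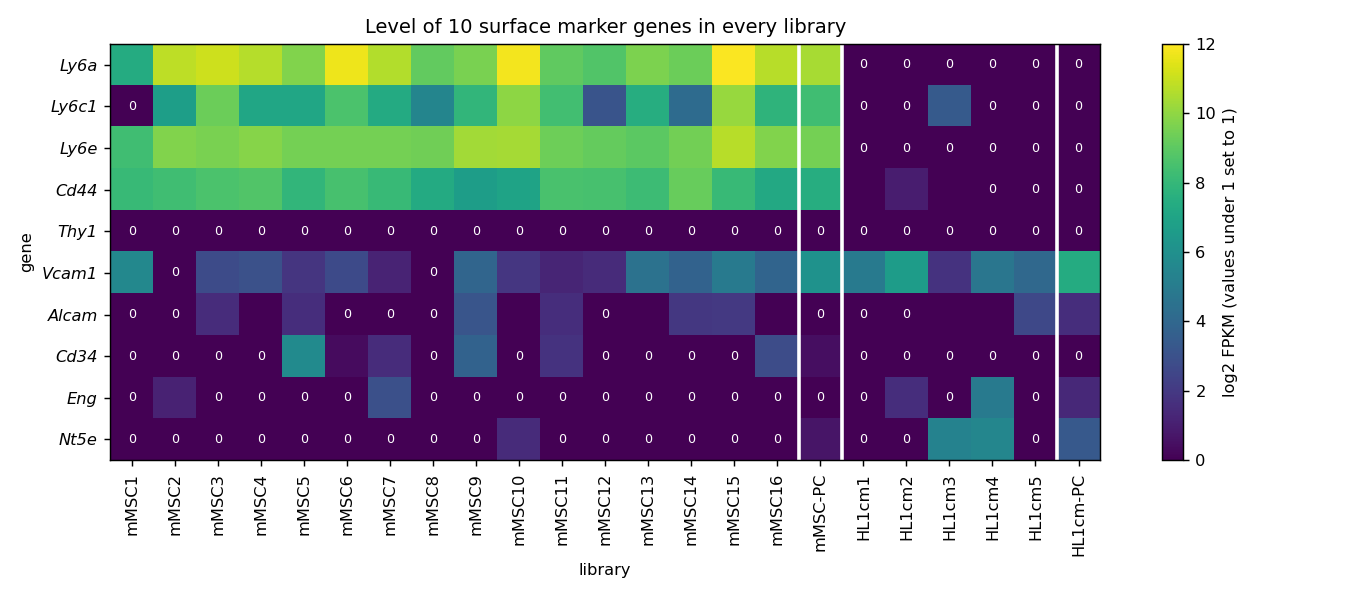
Level of the 10 surface markers (rows) in each of the 23 libraries (columns), as log2 FPKM with values under 1 set to 1. White lines separate the single mMSCs, mMSC-PC, the single HL1cm and HL1cm-PC, and a white 0 marks a value listed at 0. The rows for Ly6a, Ly6e and Cd44 are bright in all 16 mMSCs, the row for Thy1 is at 0 in all 23 libraries, and Vcam1 is above 0 in both cell types.

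Ly6a was the marker of highest median level. It ranged from 167 FPKM in mMSC1 through a median of 1190 to 3900 in mMSC15, with the next highest values in mMSC10 (3585) and mMSC6 (3327). Neither a single HL1cm nor HL1cm-PC had a value above 0, so that the cell types did not overlap. On the log2 scale its level in mMSCs was 10.12 ± 1.26 (SD, n = 16 cells). Its estimated read pairs were 25.4 to 1509 per mMSC, so even the lowest value did not rest on a few reads.

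Ly6e, which encodes the receptor for a placental syncytin and restricts several viruses, was the steadiest of the Ly6 genes. It ranged from 322 FPKM in mMSC1 through a median of 722 to 1659 in mMSC15 (9.59 ± 0.56 on the log2 scale, SD, n = 16 cells). As with Ly6a, mMSC1 was the lowest cell and mMSC15 the highest, and all HL1cm libraries were listed at 0. The highest mMSC was 5.15-fold above the lowest for Ly6e, against 23.4-fold for Ly6a.

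Ly6c1, a surface antigen of monocytes and endothelium, varied most. It was listed at 0 in mMSC1, lay at 8.78 FPKM in mMSC12 and 18.2 in mMSC14, had a median of 171 and reached 983 in mMSC10 and 1146 in mMSC15. Among the cells above 0 the range was 131-fold. Its low end stood on few reads, an estimated 2.48 read pairs in mMSC12 and 5.35 in mMSC14. Of the HL1cm, HL1cm3 was at 10.6 FPKM, an estimated 2.14 read pairs, and the other 4 were listed at 0, so that the cell types overlapped only through mMSC1 and mMSC12.

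Cd44 ranged from 103 FPKM in mMSC9 through a median of 285 to 588 in mMSC14 (8.07 ± 0.69 on the log2 scale, SD, n = 16 cells). The HL1cm values were 0.82, 1.94, 0.86, 0 and 0 FPKM in HL1cm1 to HL1cm5, and HL1cm-PC was listed at 0. The cell types did not overlap, and the difference of the mean log2 levels was 7.88 with values under 1 FPKM set to 1. Cd44 was thus as general in mMSCs as Ly6a and Ly6e, but its highest cell was not among the highest for those genes.

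Within single mMSCs the order of these genes was partly fixed. Ly6e was above Cd44 in 16 of 16 cells, Ly6a was above Ly6c1 in 16 of 16, and Ly6a was above Cd44 in 15 of 16, with mMSC1 as the exception. Ly6a was above Ly6e in 10 of 16 cells and below it in mMSC1, mMSC8, mMSC9, mMSC11, mMSC12 and mMSC14. Cd44 was above Ly6c1 in 10 of 16. The order of Ly6a and Ly6e, and that of Cd44 and Ly6c1, therefore differed from cell to cell.

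Of the 10 markers, 3 (Ly6a, Ly6e and Cd44) were higher in every mMSC than in every HL1cm, and none was lower in every mMSC. Over the 13850 genes above 0 in any single cell, 268 (1.94%) were higher in this manner and 223 (1.61%) lower. The median difference of mean log2 levels was 0.61 over the 10 markers and 0.06 over those 13850 genes. The first of these depended on the floor and was 1.31 with values under 0.1 FPKM set to 0.1. No value over all genes is given at that floor. The 0.61 is the midpoint between Alcam (0.22) and Cd34 (1.00), while single markers ran from -2.07 (Nt5e) to 10.12 (Ly6a). It thus describes no shift of the markers as a set.

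**Figure D2:**
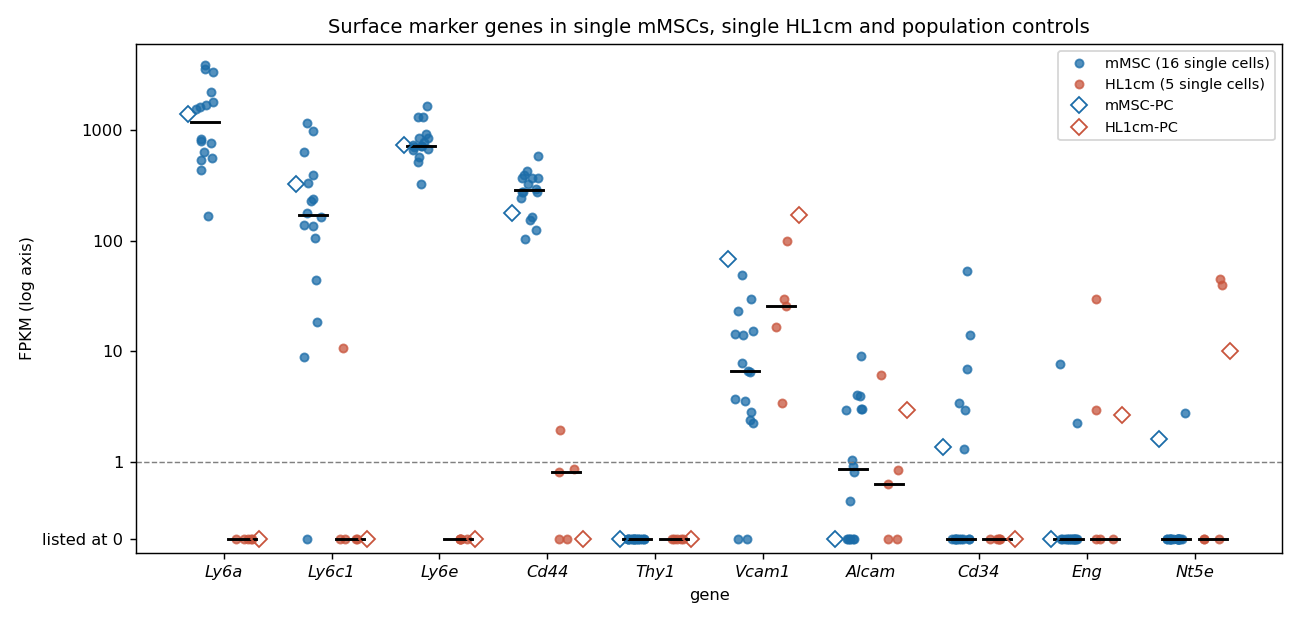
FPKM of each marker on a log axis in 16 single mMSCs (blue points), 5 single HL1cm (red points) and both population controls (open diamonds), with black bars at the medians of the single cells, the dashed line at 1 FPKM and values at 0 drawn at the bottom. The mMSC points of Ly6a, Ly6e and Cd44 lie apart from the HL1cm points, whereas those of Vcam1 and Alcam overlap.

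Vcam1, the adhesion molecule that binds integrins on blood cells, was the next most general marker, above 0 in 14 of 16 mMSCs (87.5%, exact 95% interval 61.7 to 98.4%) and at 10 FPKM or more in 6. It was listed at 0 in mMSC2 and mMSC8, had a median of 6.57 FPKM and reached 49.2 in mMSC1, the cell that was lowest for all 3 Ly6 genes. Unlike the markers above, it was present in all HL1cm, at 29.9, 98.3, 3.36, 25.8 and 16.4 FPKM in HL1cm1 to HL1cm5. The cells of both types overlapped, and the mean log2 level was 1.73 lower in mMSCs, with values under 1 FPKM set to 1. Vcam1 in a cell thus did not set mMSCs apart from HL1cm.

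Alcam (CD166), a partner of the lymphocyte receptor Cd6, was above 0 in 10 of 16 mMSCs (62.5%, exact 95% interval 35.4 to 84.8%), at 0.44 to 8.96 FPKM, the highest in mMSC9. In HL1cm it was 0, 0, 0.63, 0.84 and 6.11 FPKM, within the range of the mMSCs. These values stood on an estimated 0.95 to 8.21 read pairs per mMSC, under 3 pairs in 4 of the 10 cells. Which mMSCs carried Alcam is therefore known only to that depth.

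Cd34 was above 0 in 6 of 16 mMSCs (37.5%, exact 95% interval 15.2 to 64.6%), in mMSC5, mMSC6, mMSC7, mMSC9, mMSC11 and mMSC16. The levels were 52.8 FPKM in mMSC5, 13.9 in mMSC9, 6.83 in mMSC16, 3.37 in mMSC11, 2.91 in mMSC7 and 1.30 in mMSC6. Only mMSC5 rested on many reads, an estimated 48.1 pairs, while the other 5 cells had under 4. All HL1cm libraries were listed at 0.

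The positive panel of human MSCs was almost missing as RNA. The study names flow cytometry and fluorescence microscopy among the methods for checking the human panels, whereas the values here are RNA and not protein. It also places Eng and Nt5e among markers that earlier work found low in mouse MSCs. Thy1 was listed at 0 in all 16 mMSCs, which allows a share of cells with a value above 0 of up to 18.8%, and also in both population controls and all HL1cm. Eng, a co-receptor of the TGF-beta family, was above 0 in mMSC2 (2.24 FPKM, an estimated 2.91 read pairs) and mMSC7 (7.58 FPKM, 6.56 pairs). Nt5e, which makes adenosine from AMP at the cell surface, was above 0 in mMSC10 alone (2.74 FPKM, 3.41 pairs). No mMSC carried 2 of the 3 genes, and 3 of 16 (18.8%, exact 95% interval 4.05 to 45.6%) carried 1.

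Both Eng and Nt5e reached higher levels in HL1cm than in any mMSC. Eng was 0, 2.93, 0, 29.5 and 0 FPKM and Nt5e was 0, 0, 39.5, 45.0 and 0 FPKM in HL1cm1 to HL1cm5. HL1cm4 held both genes, with an estimated 34.4 read pairs on Eng and 61.2 on Nt5e. HL1cm-PC held both as well, at 2.63 and 10.1 FPKM.

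Of the genes that human MSCs are expected to lack, Cd14, the co-receptor for lipopolysaccharide, was above 0 in 15 of 16 mMSCs, with a median of 62.5 FPKM and a highest value of 337 FPKM. It was listed at 0 in every HL1cm. Ptprc was listed at 0 in every single mMSC. Cd14 occurred together with Cd34 in 6 mMSCs.

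The markers were then paired within cells. Of the 45 pairs of markers, 33 were above 0 together in at least 1 mMSC, and the 3 pairs among Ly6a, Ly6e and Cd44 were together in every mMSC. All 9 pairs with Thy1 were never together. The other 3 pairs that were never together were Eng with Alcam, Eng with Nt5e and Cd34 with Nt5e, each with a marker seen in 1 or 2 cells. With at least 10 FPKM required of both genes, 15 of the 45 pairs occurred together. Thy1, Alcam, Eng and Nt5e reached that level in no mMSC, so no pair with them could be counted. Every pair among the remaining markers was together in at least 1 mMSC.

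**Figure D3:**
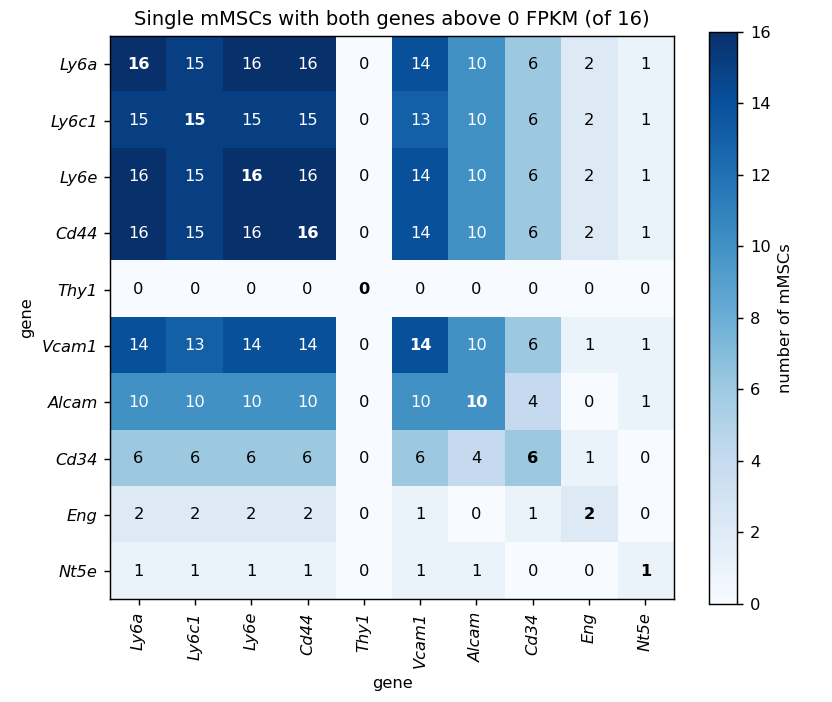
Number of single mMSCs, of 16, in which the gene of the row and the gene of the column were both above 0 FPKM, with the number of cells above 0 for each gene on the diagonal in bold. The block of Ly6a, Ly6c1, Ly6e and Cd44 holds 15 or 16 cells throughout, Vcam1 joins it in 13 or 14, Alcam in 10 and Cd34 in 6, and the row of Thy1 is 0.

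Alcam and Cd34 were found only in mMSCs that also held Vcam1. All 10 mMSCs with Alcam also carried Vcam1, and so did all 6 with Cd34. Alcam reached 10 FPKM in no mMSC, so its pairing with Vcam1 could not be judged at that level. The 4 general genes with Vcam1 were together in 13 of 16 mMSCs (81.2%, exact 95% interval 54.4 to 96.0%), and with Alcam added in 10 of 16. Alcam and Cd34 were together in 4 cells (mMSC5, mMSC9, mMSC11 and mMSC16), Alcam alone of the pair in 6, Cd34 alone in mMSC6 and mMSC7, and neither in 4. Since Vcam1 was missing from 2 cells only, a cell with Alcam or Cd34 had little room to lack it.

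Counted as whole sets, 9 different combinations of markers were found in the 16 mMSCs. The most frequent was Ly6a, Ly6c1, Ly6e, Cd44, Vcam1 and Alcam, which 5 cells carried (mMSC3, mMSC4, mMSC13, mMSC14 and mMSC15). The same set with Cd34 was found in 4 cells. Each of the other 7 combinations was found in 1 cell. With at least 1 FPKM required, this order was lost, since the most frequent set was held by 3 cells, as many as the set with Cd34 and the set without Alcam. Among them, mMSC8 held the 4 general genes alone, mMSC2 held these with Eng, and mMSC1 held Ly6a, Ly6e, Cd44 and Vcam1. A single mMSC carried 4 to 7 of the markers above 0, a single HL1cm 2 to 5, mMSC-PC 7 and HL1cm-PC 4. The number of markers above 0 had r = 0.13 with the aligned read pairs of the mMSC libraries (n = 16 cells of 1 device).

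Levels of the Ly6 genes went together from cell to cell. Over the 16 mMSCs, which share 1 device and 1 preparation, Pearson's r of the log2 levels was 0.85 between Ly6a and Ly6c1 (Spearman's rho 0.74), 0.74 between Ly6a and Ly6e (rho 0.78) and 0.76 between Ly6c1 and Ly6e (rho 0.60). A correlation was computed for the 5 markers that reached 1 FPKM in no fewer than 8 mMSCs. Of their 10 pairs, these 3 had r of 0.5 or more and none had r of -0.5 or less. Over all pairs of the 6777 genes that met the same requirement, 2.96% had r of 0.5 or more and 2.53% had r of -0.5 or less.

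For Ly6a, Ly6c1 held rank 1 of 6776 genes by r, and Ly6a in turn held rank 1 for Ly6c1. Ly6e held rank 10 for Ly6a. The cell mMSC15 was highest and mMSC10 second for all 3 genes, and mMSC1 was lowest for all 3. In all, 4 mMSCs (mMSC3, mMSC10, mMSC15 and mMSC16) were among the upper 8 for each of the 3 genes and 4 (mMSC1, mMSC8, mMSC12 and mMSC14) among the lower 8 for each.

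The relation rested in part on the ends of the range. Without mMSC1 and mMSC15, the cells farthest from the median of Ly6a, r was 0.71 between Ly6a and Ly6c1 and 0.48 between Ly6a and Ly6e. Between Ly6c1 and Ly6e, r was 0.54 without mMSC1 and mMSC12. The 3 genes did not keep a constant ratio, since Ly6c1 over Ly6a ran from 0 in mMSC1 to 0.61 in mMSC11 and Ly6a over Ly6e from 0.52 in mMSC1 to 4.63 in mMSC6. Relations of the 3 Ly6 genes with the aligned read pairs of a library were small, r = 0.22 for Ly6a, 0.16 for Ly6c1 and -0.21 for Ly6e, but Ly6e had r = -0.50 with how many genes of a cell reached 1 FPKM. Both end cells were shallow libraries, as mMSC15 held rank 2 and mMSC1 rank 3 by fewest aligned read pairs among the mMSCs. They lie at opposite ends of the Ly6 range, where r with depth can cancel, and the part of depth was not tested.

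**Figure D4:**
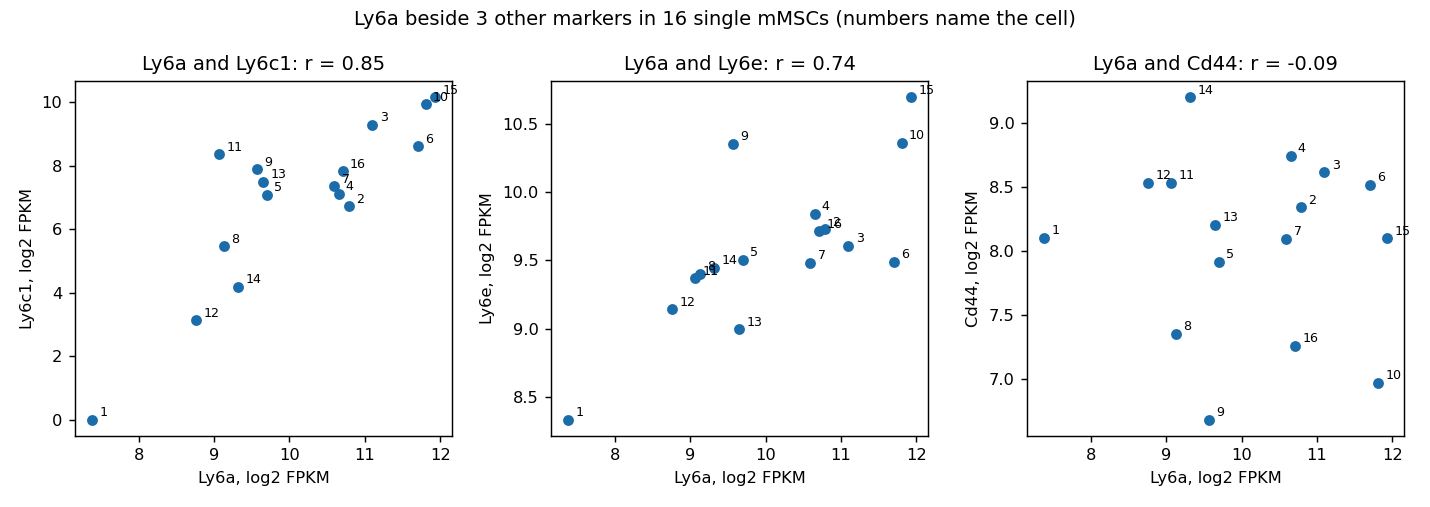
Log2 FPKM of Ly6c1, Ly6e and Cd44 against that of Ly6a in 16 single mMSCs, each point labelled with the number of its cell, values under 1 FPKM set to 1. Ly6c1 (r = 0.85) and Ly6e (r = 0.74) are higher where Ly6a is higher, with mMSC1 at the lower left and mMSC15 at the upper right, and Cd44 (r = -0.09) shows no slope.

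Cd44 did not follow the Ly6 genes. Its r was -0.09 with Ly6a, -0.24 with Ly6c1 and -0.39 with Ly6e. Without mMSC1 and mMSC15, r of Cd44 was -0.60 with Ly6e and -0.11 with Ly6a. The cell highest for Cd44, mMSC14, held rank 12 for Ly6a, and mMSC10, second for Ly6a, held rank 15 for Cd44. Cd44 had r = 0.67 with the aligned read pairs of a library and 0.53 with how many genes of a cell reached 1 FPKM, and the part of depth in its relations was not tested. The values of r between Cd44 and the 3 Ly6 genes over all mMSCs depended on the scale. With every library brought to the same sum of FPKM, r of Cd44 was 0.47 with Ly6a, 0.29 with Ly6c1 and 0.48 with Ly6e, and the share of all gene pairs with r of 0.5 or more was 9.10%. In the deposited values a single short RNA gene took up to 62.5% of that sum in an mMSC.

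Vcam1 showed little relation to the other 4 markers in level, with r between -0.14 (Ly6c1) and 0.01 (Cd44). It was highest in mMSC1, where the Ly6 genes were lowest, and without that cell r was 0.23 with Ly6a, 0.30 with Ly6c1 and 0.32 with Ly6e. Without mMSC9 and mMSC15 the values went the other way, with r = -0.26 for Ly6a, -0.33 for Ly6c1 and -0.47 for Ly6e.

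**Figure D5:**
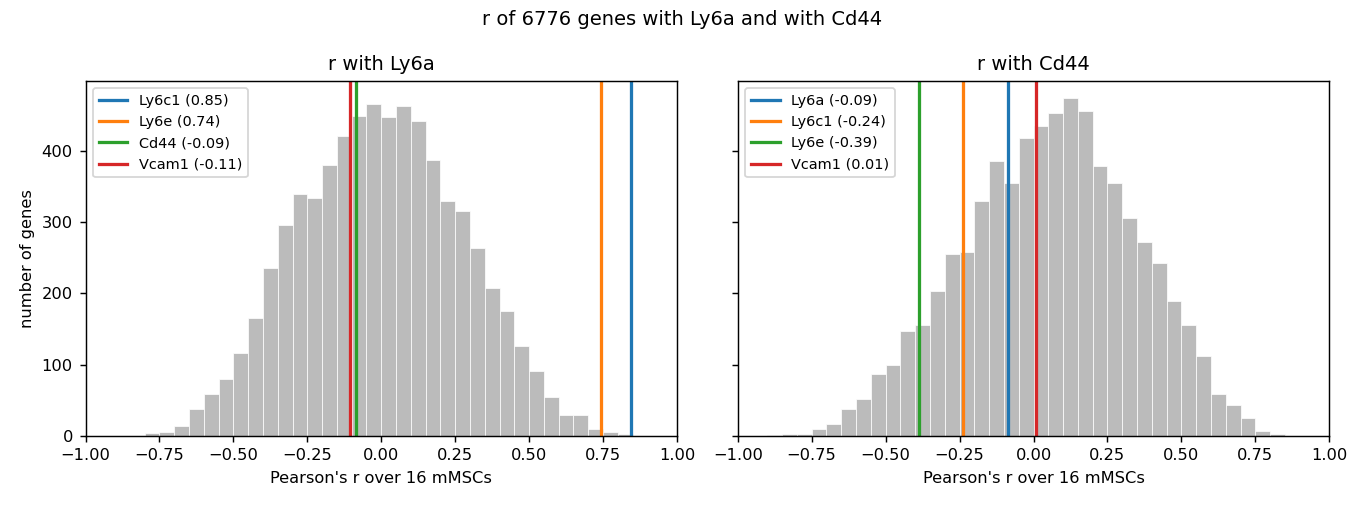
Number of genes (grey bars, 6776 genes) by Pearson's r with Ly6a on the left and with Cd44 on the right over the 16 mMSCs, with coloured lines at the other markers. With Ly6a, Ly6c1 and Ly6e lie in the far right tail, at 0.85 and 0.74, and Cd44 and Vcam1 near the centre, and with Cd44 the 4 other markers lie between -0.39 and 0.01.

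Beyond the markers themselves, Mkrn2 (r = 0.82) was the gene most like Ly6a after Ly6c1. For Ly6c1 the next genes were Zc3hav1, the zinc finger antiviral protein (r = 0.80), and Qars, the glutaminyl-tRNA synthetase (r = 0.79). For Ly6e they were Map1lc3b, an autophagosome protein (r = 0.84), and Csf1r, the receptor for macrophage colony-stimulating factor (r = 0.79), ahead of Ly6c1. For Cd44 they were Sec23ip (r = 0.82), Dpysl2 (r = 0.81) and Eif5b, a translation initiation factor (r = 0.79), and for Vcam1 Lsm4 (r = 0.77), Cep250 (r = 0.75) and Yipf1 (r = 0.74). Each of the 5 markers had 126 to 403 genes at r of 0.5 or more among the 6776. These shares were 1.86 to 5.95%, beside 2.96% of all gene pairs. The highest r of any gene lay between 0.77 and 0.85 for all 5 markers, so a value of that size was not particular to 1 of them.

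Csf1r is on the list of 18 haematopoietic markers and was above 0 in 8 mMSCs, with a highest value of 32.6 FPKM. Of this list, 5 genes were above 0 in some mMSCs and 13 in none, Ptprc, Lyz2 and Tyrobp among the latter. The summed level of the list was 3.10 to 369 FPKM in mMSCs, with Cd14 as the gene of highest mean level, and 0 to 1.10 in HL1cm. Of the 2 genes of the list detected in enough cells, Csf1r had r = 0.63 with Ly6a, 0.60 with Ly6c1 and 0.79 with Ly6e. Cd14 had r = 0.17 with Ly6a, 0.29 with Ly6c1 and 0.27 with Ly6e, and the part of this list in the relations of the Ly6 genes was not tested. Of 10 endothelial markers, 9 were listed at 0 in all mMSCs, and Kdr was above 0 in 1 of them at 10.8 FPKM.

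Not all neighbours of Ly6a on the chromosome were detected in mMSCs. Within 250000 bases on either side the table held 13 genes, Ly6a included, of which 8 were above 0 in at least 1 mMSC. Ly6i was above 0 in 4 mMSCs (up to 20.1 FPKM), whereas Ly6d and Ly6k were listed at 0 in every mMSC. Only Lynx1, Ly6e and Ly6c1 were detected in enough cells for a correlation with Ly6a, and Lynx1 had r = 0.34. The part of chromosomal position in these relations was not tested. In the wider Ly6 and urokinase receptor family (23 genes besides the 3 markers), 15 were listed at 0 in all mMSCs and Plaur, the urokinase receptor, was above 0 in all 16 at a median of 203 FPKM. Cd59a, which protects cells from complement, was above 0 in 15 and Lypd1 in 9.

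Partners of the markers were looked at in the same cells. Over all 13850 genes, 16.6% were above 0 in all 16 mMSCs, beside the 1.94% that were higher in every mMSC than in every HL1cm. Of 22 genes for hyaluronan enzymes, hyaluronan-binding proteins and Cd44 ligands or linkers, 5 were above 0 in all mMSCs, 11 in some and 6 in none, and 4 were higher in every mMSC than in every HL1cm. These 4 were Spp1 (osteopontin, a Cd44 ligand, 578 to 11947 FPKM), Msn (moesin, which ties Cd44 to actin, 106 to 383 FPKM), Vcan (versican, 0.61 to 101 FPKM) and Has2 (a hyaluronan synthase, 0.53 to 24.8 FPKM). Rdx, a relative of moesin, was above 0 in all cells of both types. Itih2, whose product is bound to hyaluronan, was above 0 in 15 mMSCs and had r = 0.69 with Ly6a.

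Of 12 integrin and other partners of Vcam1, Thy1, Alcam and Cd34, only Itgb1 was higher in every mMSC (93.0 to 231 FPKM) than in every HL1cm. Itgav was above 0 in all 16 mMSCs, at a median of 29.5 FPKM. Of 11 genes of the endoglin receptor complex and its ligands, Inhba, a subunit of activin, was higher in every mMSC (147 to 1079 FPKM) than in every HL1cm, and Tgfbr3, another co-receptor, was above 0 in all 16 mMSCs. Acvrl1, the receptor that Eng assists, was listed at 0 in every single mMSC, as Eng was in 14. In mMSC-PC, however, Acvrl1 was at 5.64 FPKM while Eng was listed at 0.

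Of 13 genes of the adenosine pathway around Nt5e, none was above 0 in all mMSCs and none separated the cell types. Entpd1, which supplies AMP to Nt5e, was listed at 0 in every mMSC. Slc29a1, a nucleoside transporter, was above 0 in 15 mMSCs and Adk, adenosine kinase, in 14. Among 28 other surface markers used for MSCs, 13 were above 0 in all mMSCs (16.6% of all genes), 10 in some and 5 in none. The last were Cspg4, Ngfr, Bst1, Mme and Icam1. In all, 6 (Cd63, Sdc4, Pdpn, Cd9, Cdh11 and Pdgfrb) were higher in every mMSC than in every HL1cm (1.94% of all genes). Mcam went the other way, above 0 in 2 mMSCs and in all 5 HL1cm. Cd63, a tetraspanin of endosomes, ranged from 2641 to 5034 FPKM, Cd9 from 224 to 1543 FPKM and Pdpn (podoplanin) from 270 to 2415 FPKM.

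The population control held 7 of the 10 markers, and its FPKM values of the Ly6 genes, as deposited, were near the mean of the single cells. Ly6a was 1397 FPKM in mMSC-PC, 0.92 times the arithmetic mean of the 16 mMSCs, Ly6c1 was 325 FPKM (1.10 times), Ly6e 727 (0.88 times) and Cd44 177 (0.60 times). Over 4658 genes with a mean of at least 10 FPKM in the mMSCs this ratio had a median of 0.93 and quartiles of 0.53 and 1.62. Gapdh was 551 FPKM in mMSC-PC, above all 16 single cells and 2.60 times their mean. Ratios of the markers, Vcam1 included, were not taken relative to Gapdh and hold for FPKM only. In a bulk sample, fewer cells with a transcript and less transcript per cell cannot be told apart.

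Vcam1 stood out, at 68.6 FPKM in mMSC-PC. This was above all 16 single cells and 6.07 times their mean, a higher ratio than in 99.1% of the 4658 genes. In HL1cm-PC it was 169 FPKM, likewise above all 5 single HL1cm and 4.86 times their mean. Cd34 and Nt5e were low in mMSC-PC, at 1.36 and 1.59 FPKM, and Alcam, Eng and Thy1 were listed at 0, although 10 single mMSCs held Alcam.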

How the data were processed

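The authors aligned paired reads of 75 bases to mm10 with TopHat2 2.0.12, estimated expression with Cufflinks 2.2.1 and deposited 1 table of FPKM values, which was used unchanged. Groups were taken from the sample titles. No 2 columns were identical. Read counts and depth are not part of that table. Estimated read pairs were computed from the FPKM, the authors' aligned read pairs per library and the longest GENCODE M21 transcript, and are approximate because Cufflinks used another annotation and an effective length. Counts of overlapping windows assume the same transcripts and include identical windows only.

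Before log2, values under 1 FPKM were set to 1. Correlations used genes that reached 1 FPKM in no fewer than 8 of the 16 mMSCs and carry no p-value. Shares of cells carry exact Clopper-Pearson 95% intervals, and a count of 0 was given the limit that 3 cells would give. Genes named besides the 10 markers are the 3 of highest r with each marker, up to 5 genes of highest mean level and those without overlap from each of 9 lists, and genes named with a small count or singled out after their values were seen. Some genes that this rule takes are not reported here. The markers and lists were chosen with earlier results of these data known. The correlation step was checked on simulated data. Alternatives changed the log scale, the scaling of libraries, the limit of detection, the gene filter, the correlation measure and the cells included. The tools were scipy 1.17.1, pandas 2.3.3, matplotlib 3.10.9 and numpy 2.4.6 under Python 3.11.15.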

Additional observations from a re-analysis of the deposited data

Results flagged for a closer look

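In the group of 5 single HL1cm, 7 genes (6 markers and Gapdh) had differing values and were screened for a cell far from the others by Dixon's criterion. It marked 3. As values under 1 FPKM had been set to 1, a lone cell above 1 is always marked, so the usual chance rate of about 1 in 20 groups does not apply to these. Ly6c1 was at 10.6 FPKM in HL1cm3 and listed at 0 in the other 4 cells. Cd44 was at 1.94 FPKM in HL1cm2 and under 1 in the other 4. Alcam was at 6.11 FPKM in HL1cm5 and under 1 in the other 4. The estimated read pairs behind these values were 2.14, 3.21 and 5.75. Groups of more than 10 cells were not screened, and each population control is 1 library.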

How the results depend on the processing

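The count of mMSCs with Ly6a, Ly6c1, Ly6e and Cd44 together and the 3 markers without overlap between the cell types stayed within 1.5 times under every alternative run for them. The 3 pairs with r of 0.5 or more numbered 3 under each alternative scale and measure and with any single mMSC left out, but without both mMSC1 and mMSC15 r of Ly6a and Ly6e was 0.48. With each library brought to the same sum, r was 0.88 for Ly6a and Ly6e and 0.86 for Ly6c1 and Ly6e. By Spearman's rho it was 0.74 for Ly6a and Ly6c1 and 0.60 for Ly6c1 and Ly6e. Leaving out 1 mMSC at a time gave r of 0.76 to 0.91 for Ly6a and Ly6c1, 0.61 to 0.85 for Ly6a and Ly6e and 0.60 to 0.81 for Ly6c1 and Ly6e, each lowest without mMSC1. Marker pairs together in a cell numbered 15 at 10 FPKM or more against 33 above 0. The lower number is the most that could occur, since Thy1, Alcam, Eng and Nt5e reached 10 FPKM in no mMSC. The mean log2 difference of Alcam between mMSCs and HL1cm, 0.22, turned to -0.0441 without mMSC15 and mMSC9, the shallowest mMSC libraries, and to -0.0918 on a scale of median ratios, which was chosen after seeing the data. The difference of Eng, -1.03, was -0.13 without HL1cm4, and that of Nt5e, -2.07, was -1.28 without HL1cm3 and -1.23 without HL1cm4. With values under 0.1 FPKM set to 0.1 the difference of Cd44 was 9.31, that of Eng -1.94 and that of Nt5e -3.19, and the median over the 10 markers was 1.31 against 0.61. The median difference of 6516 genes detected in at least 11 of the 21 single cells was 0.25 as deposited, 0.51 at equal sums, 0.52 relative to Gapdh and -0.28 on median ratios, so differences of that size between the cell types depend on the scaling. The cause of these shifts was not tested. No paired analysis was possible because replicate numbers only name cells and no result comes from a test. Markers on few read pairs (Alcam, Cd34, Eng and Nt5e) are limited by depth, as are the lowest values of Ly6c1.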
